A study of Homo sapiens with 13 samples.

Results

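Mixed arrays of IRF and MEF2 motifs are designed enhancers that carry both motifs and no other, in a row of 2 to 5 copies. They were taken as the constructs whose motif string holds exactly these names, in every order, copy number and flanking context. This gave 7 motif strings in 3 contexts, or 21 arrays. They were 18 of 442 constructs (5152 of 210844 barcodes) in the episomal library with 10 bp spacers and 21 of 542 constructs (6031 of 236860 barcodes) in the episomal library with 5 bp spacers. In the library integrated into the genome, 19 of 530 listed constructs were such arrays, and 16 of the 513 with at least 3 barcodes (340 of 16162 barcodes). IRF_MEF2_IRF was measured only with 5 bp spacers. No source used here gives the motif, spacer and flank sequences, so an array is named by its motif string read in the order of the construct's name, and by its context (1, 2 or 3).

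The study tested in STARR-seq how 1 motif, or a pair drawn from 8, acts when copies are placed side by side. The host was MEC1, an established B-cell line from a chronic lymphocytic leukaemia, labelled wild type, with no treatment compared. With 10 bp and with 5 bp spacers, 2 mRNA samples from duplicate electroporations were taken at 24 h and set against 1 plasmid DNA sample of the same pool. For the integrated assay the 5 bp pool entered a landing pad by CRE cassette exchange in MEC1 cells that carry a CRE recombinase and had been kept in blasticidin, and cells that had lost GFP were sorted after 10 to 12 days and grown for 6 to 7 more. That assay had 3 mRNA samples, 3 genomic DNA samples and 1 plasmid DNA sample. No label says that its triplicate extractions came from separate cultures, so its p-values measure the spread between these samples, which may be technical.

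STARR-seq places a candidate enhancer inside the reporter's own transcript, so an active sequence becomes more abundant in mRNA than in the DNA that was delivered. IRF motifs are bound by interferon regulatory factors, which act in interferon responses and in the development of B cells. MEF2 motifs are bound by MADS-box factors known from muscle and neurons that also act in B lymphocytes, and these factors can activate or, when bound to class II histone deacetylases, repress.

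The 6 episomal samples held between 3850658 and 4563359 reads, of which 16.6% to 18.5% belonged to barcodes without a construct name. Every barcode deposited for the episomal libraries had at least 1 mRNA read in each replicate, so barcodes without mRNA had been left out and the levels of weak arrays are overstated. Activity below is the log2 ratio of the share a construct takes of the mRNA reads to the share it takes of the plasmid reads, or of its summed RPM (reads per library total, as deposited) in mRNA to that in genomic DNA. Each construct's value sums many barcodes, and these are not replicates. Arrays named rd, which carry no name of a motif, served as the baseline. They had activities of -0.68, -0.31 and -0.87 with 10 bp spacers in contexts 1 to 3, and -1.25, -1.12 and -1.55 with 5 bp spacers.

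In the episomal libraries, IRF and MEF2 arrays stood at different places relative to their parent arrays with 10 bp and with 5 bp spacers. With 10 bp spacers they were more active than MEF2 alone and most were less active than IRF alone, and with 5 bp spacers most were more active than either. Each mixed array was compared with the IRF array and the MEF2 array of equal copies in its context, by limma over all mixed arrays of the library. In the 10 bp library 18 of 18 passed above MEF2 arrays, by a median of 1.63 (range 0.92 to 3.10), while 15 of 18 passed below IRF arrays and 0 above, with a median difference of -0.44. In that library 58.7% of all comparisons with a parent array passed above and 26.6% below. In the 5 bp library 20 of 21 passed above MEF2 arrays and 1 below, with a median of 1.42, and 16 of 21 passed above IRF arrays and 0 below, with a median of 0.68. The shares over all comparisons there were 53.3% above and 30.2% below. Arrays past the threshold above both parents numbered 0 of 18 with 10 bp and 15 of 21 with 5 bp spacers. Over all mixed arrays, tested against the more active parent alone, 111 of 318 passed above with 10 bp and 126 of 418 with 5 bp spacers.

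The levels relative to both parents differed between spacings. The level relative to IRF arrays was lower with 10 bp than with 5 bp spacers for 18 of 18 arrays, by -0.50 to -2.36 with a median of -1.13 (limma test of the difference, against a background of 37.9% lower and 33.8% higher). Relative to MEF2 arrays 9 of 18 were higher and 1 lower with 10 bp spacers, in a range of -1.31 to 1.80 with a median of 0.32. The parent arrays differed in their distance from rd. IRF arrays of 2 or more copies stood above rd by a median of 1.82 (range 0.79 to 2.63) with 10 bp and 0.56 (range 0.21 to 1.15) with 5 bp spacers. MEF2 arrays of 2 or more copies stood at a median of -0.82 (range -2.08 to 0.37) with 10 bp and -0.55 (range -1.64 to 1.40) with 5 bp spacers relative to rd. The 5 bp MEF2_MEF2 arrays lay above rd in all 3 contexts, by 0.32, 0.91 and 1.40. The plasmid pools differ as well as the spacers, so the share of each in these differences cannot be told apart.

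Arrays of 1 copy of each motif show this pattern with the values of every sample. IRF_MEF2 in context 2 had 2442 and 2600 CPM (counts scaled to the library total) in the mRNA replicates, against 1553 in plasmid DNA, with 10 bp spacers. The 5 bp version had 2616 and 2761 CPM in mRNA, against 1667 in plasmid DNA. Its activities were therefore nearly alike, 0.65 and 0.74 with 10 bp and 0.65 and 0.73 with 5 bp spacers, and the replicates of the libraries overlapped. IRF_IRF in the same context differed more, with activities of 1.55 and 1.60 with 10 bp and -0.40 and -0.24 with 5 bp spacers. MEF2_MEF2 had -0.24 and -0.20 with 10 bp and -0.29 and -0.12 with 5 bp spacers. IRF_MEF2 thus lay below the IRF parent by -0.88 ± 0.09 (SE; limma adjusted p = 1.5e-05) with 10 bp spacers and above it by 1.01 ± 0.09 (adjusted p = 5.05e-06) with 5 bp spacers.

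Context 3 held the array that lay below a parent at 5 bp spacers. IRF_MEF2 there had activities of -0.46 and -0.36, against -0.23 and -0.08 for MEF2_MEF2, a difference of -0.26 ± 0.09 (limma adjusted p = 0.0259) with no overlap of the replicates. This call was lost without the second mRNA replicate of the 5 bp library. MEF2_IRF, with the same motifs reversed, had 0.11 and 0.32 in that context and lay above MEF2_MEF2 by 0.37 ± 0.09 (adjusted p = 0.00387).

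Set against a copy-weighted mean of the parents on the log2 scale, which is the level expected if each motif contributed in proportion to its copies, the mixed arrays were nearly all higher. The departure passed above 0 for 17 of 18 arrays with 10 bp spacers (median 0.89) and for 21 of 21 with 5 bp spacers (median 1.08), and 0 passed below in either library. Over all mixed arrays the medians were 0.53 with 10 bp and 0.36 with 5 bp spacers. There 66% passed above and 21.4% below with 10 bp spacers, and 56.7% above and 30.4% below with 5 bp spacers. When barcodes needed at least 20 plasmid reads, 14 arrays could be tested with 5 bp spacers and 12 passed above. Over all mixed arrays 197 of 376 then passed above. With the filters used here, the array that did not pass was IRF_MEF2 in context 2 with 10 bp spacers, at 0.021 ± 0.059 (adjusted p = 0.749). In the 10 bp library IRF_MEF2 in context 1, at 0.30, and MEF2_IRF in context 1, at 0.42, were the next smallest. With the parents averaged on the linear scale, the 10 bp values were -0.11 and -0.24 for IRF_MEF2 in contexts 1 and 2, and 0.0053 for MEF2_IRF in context 1, which did not pass (adjusted p = 0.89). The smallest in the 5 bp library were IRF_MEF2 in context 3, at 0.25, and MEF2_IRF in contexts 2 and 1, at 0.53 and 0.66.

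The largest departures belonged to arrays of 4 and 5 copies. MEF2_IRF_MEF2_IRF_MEF2 in context 3 had 278 and 319 CPM in mRNA, against 210 in plasmid DNA, with 5 bp spacers. Its activities of 0.40 and 0.60 compare with -1.41 and -1.26 for 5 copies of IRF and -2.92 and -3.15 for 5 copies of MEF2, and no replicates overlapped. It exceeded the copy-weighted mean by 2.84 ± 0.12 (limma adjusted p = 5.75e-06), or 7.16-fold. The 5-copy MEF2 arrays with 5 bp spacers rested on 7, 5 and 9 barcodes in contexts 1 to 3, against 42 for the mixed array in context 3. MEF2_IRF_MEF2_IRF in context 3 came next, with activities of 0.26 and 0.44 and a departure of 1.89 ± 0.05. MEF2_IRF_MEF2_IRF_MEF2 in context 1, with 0.00 and 0.36, followed at 1.84 ± 0.20, and it had 11 barcodes.

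MEF2_IRF_MEF2_IRF also led with 10 bp spacers. In context 3 it had 1970 and 1926 CPM in mRNA, against 878 in plasmid DNA, and activities of 1.17 and 1.13. Its 4-copy parents had 0.93 and 1.05 (IRF) and -1.78 and -1.95 (MEF2), so it lay 1.59 ± 0.05 above the copy-weighted mean (adjusted p = 4.57e-06), with every replicate above both parents, but its excess over IRF of 0.16 ± 0.09 did not pass (adjusted p = 0.145). Context 1 gave activities of 1.10 and 1.10 and a departure of 1.55 ± 0.09, with IRF at 1.04 and 1.15. MEF2_IRF_MEF2_IRF_MEF2 in context 2 had the third largest departure, 1.44 ± 0.06, from activities of 0.18 and 0.22.

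The departure itself differed between spacings for 12 arrays, with 2 higher and 10 lower with 10 bp than with 5 bp spacers (limma test of the difference, with 35.2% higher and 34.6% lower over all mixed arrays). The median over the 18 arrays was -0.31, against -0.01 over all. MEF2_IRF_MEF2_IRF_MEF2 in context 3 had a departure of 1.11 with 10 bp and 2.84 with 5 bp spacers, a difference of -1.73 ± 0.17 (adjusted p = 0.000822). IRF_MEF2 gave -0.93 ± 0.08 in context 2 and -0.70 ± 0.07 in context 1. In context 3 the same array moved the other way, by 0.42 ± 0.07 (adjusted p = 0.00521), and so did MEF2_IRF_MEF2_MEF2, by 0.41 ± 0.14 (adjusted p = 0.0457). The other 7 differences that passed lay between -0.25 and -0.63, and belonged to MEF2_IRF, MEF2_IRF_MEF2, MEF2_IRF_MEF2_IRF and MEF2_IRF_MEF2_MEF2. That of MEF2_IRF in context 1, -0.25, did not pass when the second 5 bp replicate or either 10 bp replicate was left out (adjusted p between 0.0511 and 0.0785).

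Most of the mixed arrays were active relative to rd. In the 10 bp library 17 of 18 passed above rd, with a median of 1.28 and a highest value of 2.02, where 44.4% of all constructs passed. In the 5 bp library 20 of 21 passed, with a median of 1.39 and a highest value of 2.09, where 61% of all constructs passed. The arrays that did not pass were MEF2_IRF_MEF2_MEF2 in context 2 with 10 bp spacers, at -0.09, and in context 1 with 5 bp spacers, at 0.16. Relative to rd the spacers made no common difference, with 4 arrays higher and 4 lower with 10 bp than with 5 bp spacers and a median of 0.00. Over all constructs 15.3% were higher and 67.4% lower with 10 bp spacers, with a median of -0.76.

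The 3 least active arrays of each episomal library were MEF2_IRF_MEF2_MEF2 in its 3 contexts. The highest activities with 10 bp spacers were those of MEF2_IRF_MEF2_IRF in contexts 3 and 1, given above, and of MEF2_IRF in context 2, with 1.13 and 1.17. Those with 5 bp spacers were 0.65 and 0.73 for IRF_MEF2 in context 2, 0.49 and 0.60 for IRF_MEF2_IRF in context 3, and 0.40 and 0.60 for MEF2_IRF_MEF2_IRF_MEF2 in context 3. The replicates of the last 2 overlap each other, and those of IRF_MEF2 lie above both. MEF2_IRF_MEF2_MEF2 had -0.25 and -0.34, -0.38 and -0.42, and 0.12 and 0.13 in contexts 1 to 3 with 10 bp spacers. The 5 bp versions had -1.11 and -1.07, -0.66 and -0.54, and -0.94 and -0.97. Apart from context 3 with 10 bp spacers, all its replicates were negative.

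Reads in mRNA were also tested against those in plasmid DNA. In an edgeR quasi-likelihood fit with TMM scaling of the 442 constructs shared by both libraries, 17 of 18 arrays were higher in mRNA and 0 lower with 10 bp spacers, with a median log2 ratio of 1.20 (over all constructs 45.7% were higher, 48.6% lower, and the median was -0.12). In the 5 bp library 12 were higher and 2 lower, with a median of 0.70 (40.5% and 49.5% over all, median -0.14). The 2 lower ones were MEF2_IRF_MEF2_MEF2 in contexts 1 and 3. TMM raised these ratios by 0.55 with 10 bp and 0.67 with 5 bp spacers over scaling to library totals. Under library totals the 5 bp count became 5 higher and 8 lower, against 100 and 309 of all 442 constructs.

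The ratio of mRNA to plasmid DNA was higher with 10 bp than with 5 bp spacers for 14 of 18 arrays and lower for 0, with a median of 0.74 (edgeR interaction; 36% higher and 41.2% lower over all constructs). IRF_MEF2 in context 3 changed most. It had activities of 0.97 and 1.03 with 10 bp and -0.46 and -0.36 with 5 bp spacers, a difference of 1.42 ± 0.09 (adjusted p = 2.53e-10). MEF2_IRF_MEF2 in context 3 followed, with 0.82 and 0.81 with 10 bp, against -0.50 and -0.34 with 5 bp spacers, a difference of 1.24 ± 0.09. MEF2_IRF_MEF2_IRF_MEF2 in context 3 had 0.49 and 0.52 with 10 bp and 0.40 and 0.60 with 5 bp spacers, with overlapping replicates and a difference of 0.015 ± 0.13. The rd arrays too were higher with 10 bp spacers. When both libraries were scaled on rd, 3 mixed arrays were higher and 6 lower, against 66 and 306 of all 442 constructs.

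With 5 bp spacers the order of the pair changed its activity, in a direction that depended on the context, and with 10 bp spacers 1 of 3 swaps passed. Many swaps of other pairs passed as well. IRF_MEF2 minus MEF2_IRF was compared in each context by limma, over 84 such swaps of all pairs of motifs, taken in alphabetical order of the motif names. Of the 10 bp swaps, only that in context 2 passed. There IRF_MEF2 had 0.65 and 0.74 and MEF2_IRF 1.13 and 1.17, a difference of -0.45 (adjusted p = 0.000529), while contexts 1 and 3 gave -0.11 and 0.11. The count was 0 higher and 1 lower, against 25% higher and 29.8% lower over all swaps. All 3 of the 5 bp swaps passed, and the sign depended on the context: 0.34 in context 1, 0.42 in context 2 and -0.62 in context 3 (adjusted p between 0.000219 and 0.00125). That is 2 higher and 1 lower, against 29.8% and 42.9%. The order effect differed between spacings in each context, by -0.46, -0.87 and 0.73 in contexts 1 to 3, or 1 higher and 2 lower against 34.5% and 22.6% over all swaps.

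At the fourth position, IRF gave a higher level than MEF2 in every context and both episomal libraries. MEF2_IRF_MEF2_IRF exceeded MEF2_IRF_MEF2_MEF2 by 1.40, 0.94 and 1.02 in contexts 1 to 3 with 10 bp spacers (limma adjusted p between 0.000176 and 0.00155). The 5 bp differences were 1.25, 0.77 and 1.30 (adjusted p between 0.000304 and 0.00228). So 3 of 3 passed in each, and the replicates of the arrays with IRF lay above those with MEF2 throughout. The background over all motifs was the array of alternating motifs minus the array that ends in a repeated motif. Of these differences 41.7% passed as higher with 10 bp and 47.2% with 5 bp spacers. Here the arrays with IRF are also the alternating arrays, and they hold more IRF copies. The differences between spacings did not pass in any context.

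Among motifs added one by one, IRF and MEF2 differed in direction mainly at the fourth position, where the arrays are those compared above. The second motif raised activity: adding IRF to MEF2 raised it in 3 of 3 contexts with 10 bp spacers (0.63 to 2.10) and in 3 of 3 with 5 bp spacers (0.91 to 1.84). Adding MEF2 to IRF raised it in 2 of 3 contexts with 10 bp spacers (-0.16 to 1.04) and in 3 of 3 with 5 bp spacers (0.90 to 1.04). A MEF2 motif added at the third to the fifth position passed as a rise in 0 of 9 cases in either library. It passed as a fall in 8 of 9 with 10 bp and in 7 of 9 with 5 bp spacers, and the 9 changes ranged over -0.99 to -0.075 and over -1.02 to 0.15 in these libraries. With 10 bp spacers IRF was added only at the fourth of these positions, where it raised activity in 2 of 3 cases and lowered it in 0. In the 5 bp library IRF raised activity in 4 of 6 and lowered it in 2, in a range of -0.49 to 0.95. At the third position with 5 bp spacers IRF gave 1 rise and 2 falls, and MEF2 gave 3 falls. At the fourth, IRF gave 3 rises and MEF2 gave 3 falls. In all, 7 steps of 18 rose and 8 fell with 10 bp spacers, against 38.8% and 41.7% over all constructs, and 10 of 21 rose and 9 fell with 5 bp spacers, against 41% and 35.9%.

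The 3-motif arrays with 5 bp spacers could be compared by which motif stood in the middle. IRF_MEF2_IRF exceeded MEF2_IRF_MEF2 by 0.58 in context 2 (limma adjusted p = 0.00135) and by 0.96 in context 3 (adjusted p = 0.000253). In context 1 their activities were -0.02 and 0.03 against -0.08 and -0.05, and the difference of 0.07 did not pass (adjusted p = 0.351). Leaving out either mRNA replicate kept the sign of both, but neither passed (adjusted p between 0.0562 and 0.15). That is 2 of 3, where 53.5% of all such pairs of motif strings passed in the alphabetical direction. These arrays differ in the number of IRF copies as well as in the order.

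The flanking context moved the activity of the same motif string by up to 1.10 within an episomal library. Calls were near or below the shares over all constructs, so this is not particular to these arrays. Of the differences between contexts, the later minus the earlier, 7 of 18 passed as higher and 2 as lower with 10 bp spacers (46.2% and 26.3% over all constructs), and 5 of 21 as higher and 6 as lower with 5 bp spacers (23.7% and 35.6%). IRF_MEF2 was the clearest case. Its 5 bp activity in context 3 lay -0.91 from context 1 and -1.10 from context 2. The same 10 bp differences were 0.07 and 0.30. The change between spacings was 0.98 (limma adjusted p = 0.000767) for context 1 and 1.40 (adjusted p = 0.000248) for context 2.

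In the integrated library, made from the 5 bp pool, the arrays lay above MEF2 and, more often than not in value, below IRF. This place below IRF differs from the episomal 5 bp library, where 16 of 21 passed above IRF and 0 below. The difference between the assays was not tested. MEF2 parents were exceeded in 9 of 14 comparisons, with 0 below and a median of 3.07. Against IRF parents 2 of 16 passed above and 6 below, with a median of -1.38 (25.7% above and 22.8% below over all comparisons with a parent). The 2 above were MEF2_IRF in contexts 2 and 3, and these also exceeded MEF2. Neither passed above IRF when any replicate was left out. The departure from the copy-weighted mean passed above 0 for 6 of 14 arrays and below for 1, with a median of 1.15, against 24.3% above, 15.5% below and a median of 0.20 over all mixed arrays. The count above fell to 2 or 3 with any replicate left out. With the parents averaged on the linear scale, 2 passed above and 2 below, and the median was -0.52. Over all 375 mixed arrays 46 then passed above and 74 below, and the median was -0.56.

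MEF2_IRF in context 2 had the highest activity, 2.96, 3.02 and 2.63, and the largest departure, 3.20 ± 0.28 (limma adjusted p = 0.00118). It had 5999, 5827 and 5625 RPM in mRNA, against 770, 719 and 907 RPM in genomic DNA. A lone barcode out of 15 carried 95.3% of this mRNA, with 5782, 5641 and 5213 RPM. Without the barcode with most mRNA of each construct, the departure was 0.58 (adjusted p = 0.756). The departures of MEF2_IRF in context 3, at 2.54 ± 0.42, and of MEF2_IRF_MEF2 in context 2, at 1.92 ± 0.32, rested on barcodes with 76.8% and 83.9% of the mRNA, and became 0.80 and -0.31 without them. MEF2_IRF in context 1, with activities of -0.64, -0.64 and -0.04, had a departure of 2.05 ± 1.08 that did not pass (adjusted p = 0.184). Its MEF2 parent had 3 barcodes, with 38.1, 0 and 0 RPM in mRNA.

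IRF_MEF2_IRF was above its copy-weighted mean on the log2 scale in all 3 contexts. In context 3 it had 4424, 3611 and 4884 RPM in mRNA, against 1354, 1051 and 1188 RPM in genomic DNA, and its leading barcode held 11.1% of the mRNA, as against 12.9% in context 2 and 30.1% in context 1. Its activities were 1.71, 1.78 and 2.04 in context 3, 0.99, 0.56 and 0.92 in context 2, and 0.85, 1.05 and 0.19 in context 1, all above 0. The departures were 1.58 ± 0.44, 1.09 ± 0.30 and 1.22 ± 0.31 in contexts 3, 2 and 1 (adjusted p between 0.029 and 0.0378). With the parents averaged on the linear scale they were 0.27, 0.63 and -0.29, and none passed (limma adjusted p between 0.198 and 0.536). Mean activities of 1.84, 0.82 and 0.70 in contexts 3, 2 and 1 compare with 2.15, 0.68 and 1.57 for IRF_IRF_IRF. With any replicate left out, none of the 3 passed, with the same sign and values of 0.79 to 1.87. Nor did any pass without the leading barcodes (adjusted p between 0.0637 and 0.098), with values of 1.74, 1.27 and 2.28 in contexts 3, 2 and 1. MEF2_IRF_MEF2_IRF in context 3, the third most active array, had 1.07, 1.42 and 1.15 on 9 barcodes.

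At the low end stood arrays rich in MEF2. MEF2_IRF_MEF2_MEF2 in context 2 had 45.2, 30.9 and 0 RPM in mRNA, against 197, 244 and 262 RPM in genomic DNA, on 7 barcodes. Its MEF2 parent, on 7 barcodes, also had 0 RPM in the mRNA of replicate 3, with activities of -0.65, -2.77 and -8.90. Its IRF parent had 4 barcodes. Both zeros rest on the 0.5 added to each RPM sum and largely offset each other in the departure, so its SE does not show them. The departure of this mixed array, -2.34 ± 0.38 (limma adjusted p = 0.00808), passed below 0. It did not pass without replicate 1 (adjusted p = 0.0752) or without the leading barcodes (adjusted p = 0.0807). In context 3 the same string had activities of -7.44, -1.68 and -1.17, so 1 replicate set its mean. MEF2_IRF_MEF2 in context 3 had -2.51, -2.70 and -3.25, with a departure of -1.20 ± 0.41 that did not pass (adjusted p = 0.0687). MEF2_IRF_MEF2_IRF in context 2 had -0.39, -0.29 and -2.17, and its departure of -0.33 ± 0.70 did not pass.

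Counting the integrated barcodes that yielded any mRNA gives a measure on which the leading barcode counts only once. Of the 98 barcodes of IRF_MEF2_IRF, 60.2%, 69.4% and 57.1% had mRNA in the 3 replicates (62.2% ± 6.37, SD, n = 3), and 84 had it in at least 1 replicate (85.7%, exact 95% binomial interval 77.2% to 92.0%). Of the 98 barcodes of MEF2_IRF_MEF2 the shares were 14.3%, 19.4% and 14.3% (16.0% ± 2.95), and 37 had it in at least 1 replicate (37.8%, interval 28.2% to 48.1%). The replicates of these strings did not overlap. The 3-copy parents had 108 of 126 barcodes with mRNA (85.7%) for IRF and 22 of 86 (25.6%) for MEF2, and rd had 24 of 123 (19.5%). Within a replicate the mean share of IRF_IRF_IRF was 65.1% ± 8.73. In all 3 replicates mRNA was found for 39 of 98 barcodes of IRF_MEF2_IRF and for 56 of 126 of IRF_IRF_IRF. The difference between these strings was not tested. The intervals cover counting error only. They pool the barcodes of 3 contexts, which are not replicates, and leave out the spread between contexts and between samples. In contexts 1 to 3 the share with mRNA in at least 1 replicate was 84.0%, 86.2% and 86.4% for IRF_MEF2_IRF. For MEF2_IRF_MEF2 it was 43.8%, 42.6% and 28.6%. Reads carry no molecular identifiers.

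The remaining integrated comparisons rested on few barcodes. Against genomic DNA 7 of 16 arrays were higher in mRNA and 2 lower, with a median of -0.16, against 13.5% higher, 55.9% lower and a median of -1.45 over all constructs. The count higher was 3 to 5 with a replicate left out and 2 without the leading barcodes (30 of all 513 constructs). Against rd 7 were higher and 2 lower (30.4% and 29.4% over all). The rd arrays had mean activities between -3.77 (context 3) and 0.75 (context 2), so values relative to rd are not alike across contexts. Both lower arrays, MEF2_IRF_MEF2_IRF and MEF2_IRF_MEF2_MEF2, were in context 2, where a lone barcode held 84.0% of the mRNA of rd.

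IRF_MEF2 lay below MEF2_IRF by -2.75 in context 2 (limma adjusted p = 0.000734) and by -2.35 in context 3 (adjusted p = 0.0142), and by -0.38 in context 1, which did not pass. This is 0 higher and 2 lower, against 16.7% higher and 16.7% lower over all swaps. Without the leading barcodes none passed, and the context 2 value was 0.30. In context 3, no call was made without replicate 2 (adjusted p = 0.119).

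IRF_MEF2_IRF exceeded MEF2_IRF_MEF2 by 4.66 in context 3 (adjusted p = 0.00073), and by 2.58 in context 1 (adjusted p = 0.0425), which no longer passed without replicate 1 or 2, or when barcodes needed 20 plasmid reads (adjusted p = 0.0643). In context 2 the difference was 0.11 (adjusted p = 0.709), and 2.61 (adjusted p = 0.0152) without the leading barcodes. So 2 of 3 passed, as did 32.4% of all such pairs of strings in the alphabetical direction. IRF in place of MEF2 at the fourth position gave 3.75 and 4.64 in contexts 2 and 3, of which 0 of 2 passed (6.45% over all). For the motif added at the third to the fifth position, MEF2 gave 0 rises and 2 falls in 5 cases, and IRF gave 2 rises and 0 falls in 5. Over all constructs 19.1% of the steps at any position passed as rises and 16.7% as falls.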

How the data were processed

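Per the file headers, the deposited episomal tables hold raw counts of reads for each barcode, with its construct's name. The integrated table holds RPM as deposited by the authors, for mRNA and for genomic DNA, and plasmid DNA counts. Aligner and genome build: not given in the sources used here. Samples were grouped by library, spacer and material in their titles, and 9 columns of per-sample values that matched no sample were not used.

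Barcodes with a name and at least 5 plasmid reads were summed per construct, with at least 5 barcodes (episomal) or 3 (integrated). Between 16.6% and 18.5% of episomal reads had no name and stayed out of library sizes. The mRNA replicates differed by more than sampling noise (chi-square per degree of freedom of 6.76 at 10 bp and 6.41 at 5 bp). R 4.3.3, edgeR 4.0.16 (quasi-likelihood, TMM, 6 libraries in 4 groups), limma 3.58.1 and, as an alternative, DESeq2 1.42.0 were used. With 1 plasmid DNA sample per episomal library, its spread was taken to be that of the mRNA samples. Differences between constructs were tested with limma on log2 CPM (prior count 0.5) computed from the deposited counts, or on log2 of summed RPM plus 0.5 from the authors' RPM, and library scaling cancels in them. P-values were Benjamini-Hochberg adjusted over every such comparison of a library, with a threshold of 0.05. Simulated data were used to test the 5 bp edgeR comparison of mRNA with plasmid DNA, the 5 bp departure and its difference between spacings. The integrated comparison of mRNA with genomic DNA was also tested in this way, and the other comparisons were not.

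Values are given in full for the 3 arrays with the largest and the 3 with the smallest activity in each library, the 3 with the largest departure either way, and those whose departure differs between spacers, and otherwise as ranges. The members and comparisons were chosen with earlier results of these data known. The fourth-motif, middle-motif and added-motif comparisons, and the setting without each construct's leading barcode, were chosen after seeing the data. Replicate numbers were checked for pairing (correlation of same-numbered deviations 0.05 in the episomal samples and between -0.03 and 0.05 in the integrated samples). The check gave no sign of pairing, but technical noise could hide one, so it cannot exclude it.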

Additional observations from a re-analysis of the deposited data

Results flagged for a closer look

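These values stand out because the departure from the copy-weighted mean of the parents differed between spacings by a test of the difference itself (limma, 10 bp minus 5 bp). For IRF_MEF2 it was -0.70 in context 1, -0.93 in context 2 and 0.42 in context 3. For MEF2_IRF it was -0.25 in context 1 and -0.31 in context 3. For MEF2_IRF_MEF2 it was -0.52 in context 1 and -0.35 in context 3. For MEF2_IRF_MEF2_IRF it was -0.63 in context 2 and -0.30 in context 3, and for MEF2_IRF_MEF2_MEF2 it was -0.44 in context 2 and 0.41 in context 3. MEF2_IRF_MEF2_IRF_MEF2 in context 3 gave -1.73, where its 5-copy MEF2 parent had 37 barcodes with 10 bp and 9 with 5 bp spacers.

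By the same kind of test, IRF_MEF2 minus MEF2_IRF changed between spacings by -0.46, -0.87 and 0.73 in contexts 1 to 3. The median difference from IRF arrays changed by -1.13, and the median difference from MEF2 arrays by 0.32. Spacer and plasmid pool cannot be told apart in any of these.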

How the results depend on the processing

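Counts are of IRF and MEF2 arrays past the threshold. Scaling to library totals gave 5 higher and 8 lower in mRNA with 5 bp spacers and 2 lower with 10 bp. Of all 442 constructs, 100 were then higher and 309 lower with 5 bp, and 276 lower with 10 bp. Scaling on rd gave 0 lower with 5 bp spacers (115 of all 442). Scaling on rd also gave 3 higher and 6 lower with 10 bp than 5 bp spacers (66 and 306 of all 442). It turned the spacer difference of IRF_MEF2 (-0.27 in context 1, -0.69 in context 2), MEF2_IRF (-0.025 in context 3), MEF2_IRF_MEF2 (-0.12 in context 1), MEF2_IRF_MEF2_IRF (-0.33 in context 2), MEF2_IRF_MEF2_IRF_MEF2 (-0.46, -0.18 and -0.69 in contexts 1 to 3) and MEF2_IRF_MEF2_MEF2 (-0.50 in context 2).

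With at least 20 plasmid reads per barcode, which leaves fewer arrays to test, 1 was lower in mRNA with 5 bp spacers, 12 departed upward, 13 were above MEF2 and 1 below IRF. With 10 bp spacers 1 was above IRF, and 6 departures were lower than with 5 bp. The departures of IRF_MEF2 and MEF2_IRF_MEF2_MEF2 in context 3 with 5 bp spacers were then 0.15 and 0.13 and did not pass. In the integrated library 1 was above IRF and IRF_MEF2 fell below MEF2_IRF in 1 context. The same filter on 20 integrated barcodes gave 1 above IRF, 2 below IRF, 5 above MEF2 and 1 order difference, and a minimum of 10 gave 0 departures downward.

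With the more active parent as the expectation, 1 array departed downward with 5 bp spacers, and 0 upward and 15 downward with 10 bp (median -0.44). Over all mixed arrays 225 of 418 departed downward with 5 bp, and 111 of 318 upward and 155 downward with 10 bp. The integrated counts were 2 upward and 7 downward (median -1.38), against 41 and 160 of all 375 mixed arrays. The departure was then higher with 10 bp in 0 and lower in 17. A linear mean of the parents gave 2 downward with 10 bp, 2 upward and 2 downward in the integrated library (median -0.52), and turned IRF_MEF2 with 10 bp spacers (-0.11 in context 1, -0.24 in context 2) and integrated IRF_MEF2_IRF in context 1 (-0.29). MEF2_IRF in context 1 with 10 bp spacers lost its call at 0.0053. Integrated IRF_MEF2_IRF in contexts 2 and 3 lost its calls at 0.63 and 0.27. Over all mixed arrays the linear mean gave 103 of 318 downward with 10 bp spacers.

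In the integrated library a pseudocount of 5 gave 4 lower in mRNA, 2 departures downward and 2 fourth-motif differences, and centring on rd gave 1 lower. Over all, the pseudocount of 5 gave 312 of 513 constructs lower and 67 of 375 mixed arrays downward, and centring on rd gave 94 constructs lower. Without each construct's leading barcode, 2 were higher and 11 lower in mRNA (of all 513 constructs, 30 higher and 342 lower). Under this setting 2 departed upward and 0 downward (of all 375 mixed arrays, 35 and 28). There, 0 were above IRF, 10 below IRF and 5 above MEF2, with 1 fourth-motif and 0 order differences. MEF2_IRF_MEF2 in context 2 then departed by -0.31 and the order difference in context 2 was 0.30.

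With a replicate left out, 3 to 5 integrated arrays were higher and 1 to 3 lower in mRNA, 2 to 3 departed upward and 0 to 1 downward, 0 were above IRF and 3 to 6 below, and 1 to 2 order differences passed. With 5 bp spacers 0 to 1 were below MEF2, and neither difference of IRF_MEF2_IRF from MEF2_IRF_MEF2 passed. The replicate numbers do not pair the samples. With replicate number as a block, 3 integrated arrays departed upward, 0 were above IRF, the departure was higher with 10 bp spacers in 1, and IRF_MEF2_IRF above MEF2_IRF_MEF2 in context 1 did not pass (adjusted p = 0.0575). Among single arrays, over all alternatives, 27 integrated departures lost the call and 7 gained it, where 105 kept direction and side. Differences of departure between spacings lost it in 6 and gained it in 7 cases, where 119 kept it.

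With 2 mRNA replicates and 1 plasmid DNA sample per spacing, precision is limited, as it is by 5-copy MEF2 parents of 5 to 9 barcodes with 5 bp spacers and by integrated arrays of 4 to 47 barcodes. The motif sequences, and with them any overlap of neighbouring motifs, were not used here. Barcodes without mRNA had been left out of the episomal files, which raises weak arrays most.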

Other observations

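Among the 28 pairs of motifs, the median departure from the copy-weighted mean of the parents places IRF with MEF2 as follows, as a description of arrays that share parents, libraries and plasmid pools. With 5 bp spacers its median of 1.08 was the highest of the 7 pairs that hold IRF, where the others lay at 0.47 (FOXO), -0.05 (NFKB), -0.26 (RUNX3), -0.44 (PU1), -0.52 (MYC) and -0.91 (CTCF). Among the 7 pairs that hold MEF2 it came after PU1 (1.81), FOXO (1.37) and NFKB (1.23). With 10 bp spacers its median of 0.89 came after FOXO (1.13) among pairs with IRF, and after NFKB (1.11), FOXO (0.91) and MYC (0.89) among pairs with MEF2. In the integrated library its 1.15 was beside 1.09 for FOXO among pairs with IRF, and came after PU1 (2.42), NFKB (1.52) and FOXO (1.45) among pairs with MEF2. The order of the pairs was not tested.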
